A study of Mus musculus with 18 samples.

Results

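The genes described here encode the nuclear subunits of the mitochondrial respiratory chain and of ATP synthase. They were taken from the array by name: every probe, controls left out, whose deposited gene name began with Ndufa, Ndufb, Ndufc, Ndufs, Ndufv, Uqcr, Cox4 to Cox8, Atp5, Sdha, Sdhb, Sdhc or Sdhd. This gave 113 of 41174 probes and 82 of 20255 named genes. Of these, 79 genes were well above background on at least 5 of the 18 arrays and were tested among 13265 genes. Under current symbols, 75 of the 79 are structural subunits: 36 of complex I, 4 of complex II, 7 of complex III, 13 of complex IV and 15 of complex V. The other 4 were also caught by the name: Ndufaf1, an assembly factor of complex I, Cox7a2l, which takes part in joining complexes III and IV, Dmac2l (deposited as Atp5s) and Emc8 (deposited as Cox4nb), a subunit of an endoplasmic reticulum membrane complex. The tested genes are called members from here on, and counts by complex are over the 75 subunits unless said otherwise.

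Complexes I and II pass electrons from NADH and succinate to ubiquinone, complex III passes them to cytochrome c, and complex IV (cytochrome c oxidase) to oxygen. Complexes I, III and IV pump protons, and complex V (ATP synthase) uses the gradient to make ATP. The catalytic core of complex IV is encoded in mitochondrial DNA, so its nuclear genes encode the subunits around that core, and several of them exist in alternative forms for muscle or testis. In blood, mature red cells have no mitochondria, reticulocytes still hold some, and neutrophils are known for living largely on glycolysis.

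The study looked for marks of radiation exposure in the RNA of mouse blood. Male C57BL/6N mice, 8 to 12 weeks old, received 2 Gy (5 mice) or 8 Gy (6 mice) of gamma rays from a cesium source, or a sham treatment (0 Gy, 7 mice). Whole blood was taken by cardiac puncture 6 h later from all groups, and each mouse gave 1 Agilent array, labelled with Cy3 after globin RNA was removed. RNA was purified with the RiboPure kit from 5, 4 and 6 mice of the 0, 2 and 8 Gy groups, and with the PAXgene kit from 2, 1 and 0. The design text calls the samples distinct biological samples. Values are log2 of the processed spot intensity minus the 75th percentile of that array, so 0 is the array's own 75th percentile. A probe's intensity depends on its sequence, so a level shows how bright a probe was and gives no order of transcript amounts between genes.

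The irradiated arrays tended to be dimmer, with overlapping ranges. The 75th percentile of intensity was 138 to 425 at 0 Gy, 46.4 to 186 at 2 Gy and 58.4 to 232 at 8 Gy. Precision is limited by how many arrays each group has. The blood itself also differed between groups at 8 Gy: all 8 B cell markers fell, with a median difference of −3.40, and all 8 neutrophil markers rose, with a median of 2.35. Of the 6 platelet markers 3 rose, and none of 8 T cell, 6 NK cell, 5 monocyte or 8 erythroid markers passed, although all 8 erythroid differences lay above 0 (median 0.84). Summed over the list in linear units of each array's 75th percentile, B cell markers spanned 39.2 to 283 at 0 Gy and 5.76 to 74.7 at 8 Gy, and neutrophil markers 471 to 2605 and 1585 to 3995. Every listed marker but the monocyte gene Ly6c2 was above background on enough arrays to be tested. At 2 Gy the median difference was −2.68 for the B cell, 1.63 for the neutrophil and 0.86 for the platelet markers, and no marker of these 3 lists passed. At an unadjusted p under 0.05 (limma) all 8 B cell markers were lower, and all 8 neutrophil and 6 platelet markers higher. Of all genes 9.11% were lower and 11.3% higher. The part of the marker lists in the results for the members was not tested. In whole blood, fewer cells of a type and less RNA per cell cannot be told apart.

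Arrays of 2 mice stood apart from their dose group in these markers. On 0 Gy replicate 5 the median deviation of the B cell markers from the 0 Gy mean was −2.04 (−0.19 to 0.95 on the other 0 Gy arrays) and that of the neutrophil markers 1.83 (−0.64 to 0.19 on the others). On 8 Gy replicate 1 the B cell median was −0.91 (−4.59 to −3.46 on the other 8 Gy arrays) and the neutrophil median 1.31 (2.20 to 3.51 on the others). Another, 2 Gy replicate 3, stood apart in the members themselves, as described further on. Results that rest on these arrays are given with and without them.

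At 8 Gy, 7 of 79 members rose against 0 Gy and none fell (limma, Benjamini-Hochberg adjusted p under 0.05 over all genes tested). That is 8.86% of the members, and 12.0% of all genes passed, 7.64% higher and 4.31% lower. The risen members were Cox6c, Cox8a and Cox6a1 of complex IV, Ndufa3 and Ndufs4 of complex I, and Atp5l and Atp5h of complex V, by 1.49 to 2.04 times. No gene of complexes II or III passed. At an unadjusted p under 0.05, 18 members were higher and 8 lower, beside 20.3% and 12.8% of all genes. The fitted difference was above 0 for 34 of 79 members (43.0%) and for 54.7% of all genes. The median difference was −0.09 over the members and 0.08 over all genes. The shares that passed were thus near or below the background, and the members divided by complex: the median difference was 0.50 in complex IV (1.41 times), with 12 of 13 subunits above 0, against −0.13 in complex I (11 of 36), −0.20 in complex II (0 of 4), −0.22 in complex III (3 of 7) and −0.05 in complex V (7 of 15). These medians are a description.

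**Figure D1:**
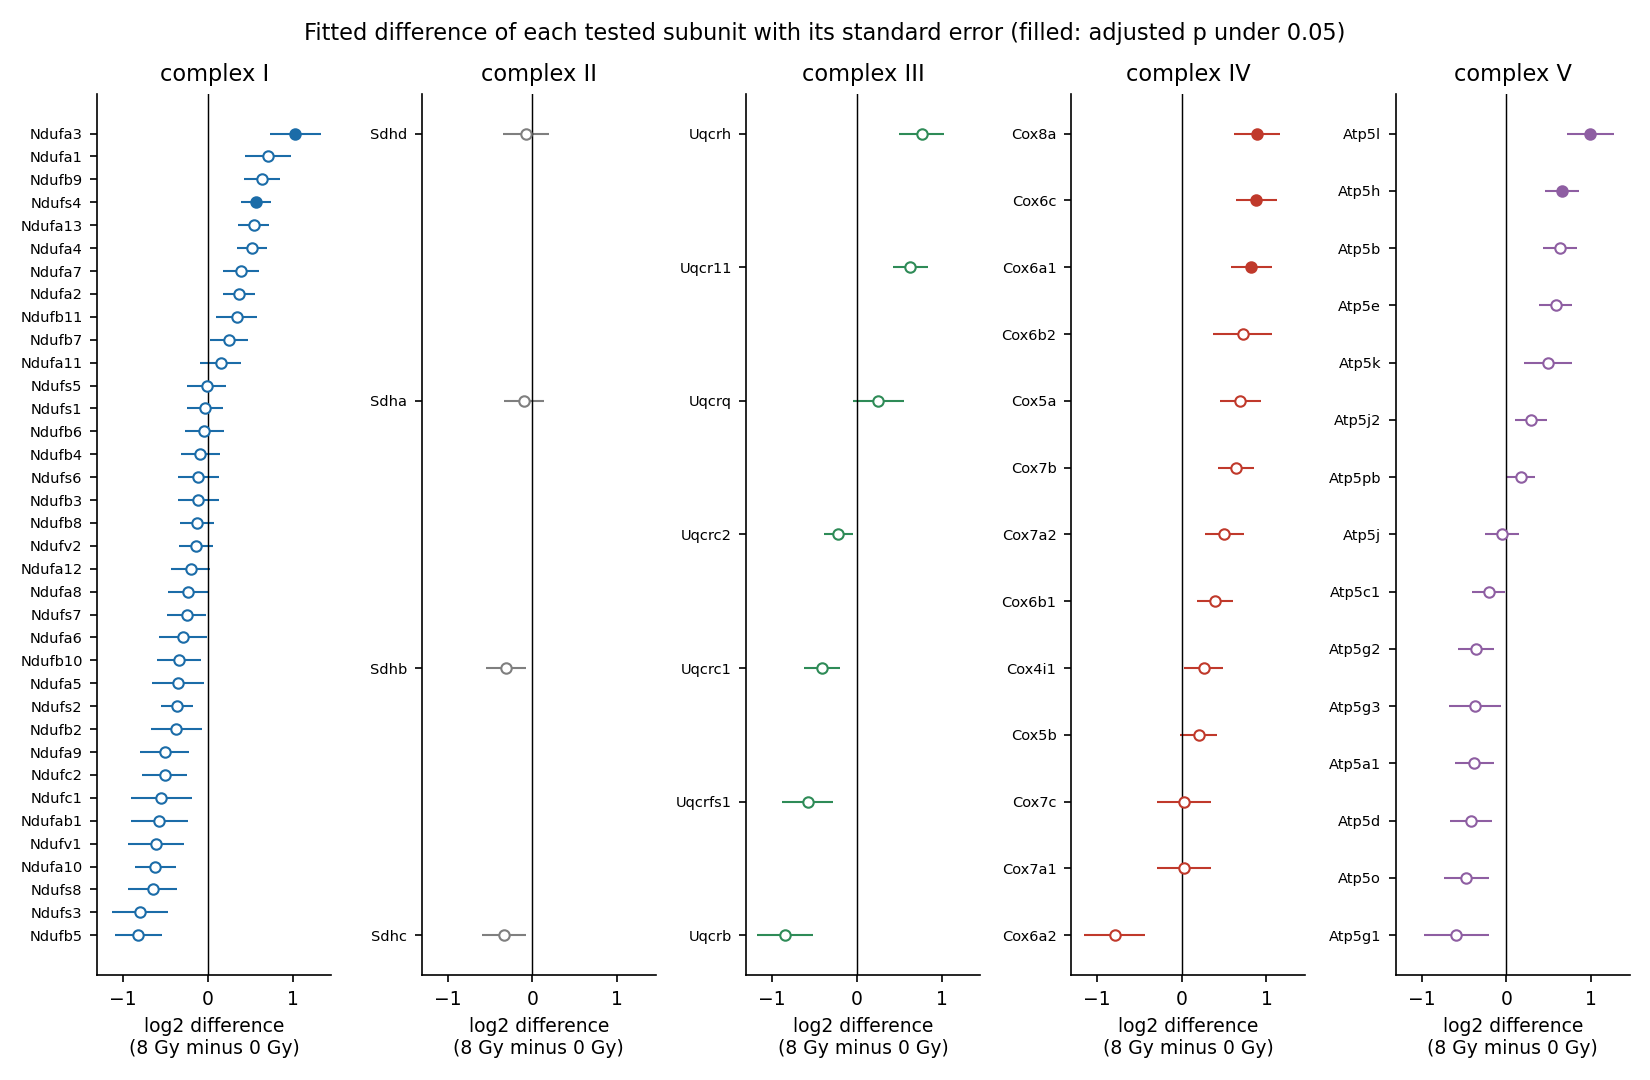
Fitted log2 difference of each tested subunit, 8 Gy minus 0 Gy (x axis), in 1 panel per complex, with the standard error as a bar and filled points for an adjusted p under 0.05. In complex IV 12 of 13 points lie right of 0 and 3 are filled, while all 4 points of complex II lie left of 0 and none is filled.

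Genes for respiratory chain subunits are known to share promoter sites of NRF-1, of ETS family factors such as NRF-2, and of YY1. The core letters of these sites were searched on both strands of the window from 250 bases before to 50 after the gene start (RefSeq, GRCm38.p6), which was given for 63 of the 75 subunits. The NRF-1 core GCATGCGC (reverse complement GCGCATGC) stood in 10 of 63 subunit windows (15.9%) and in 3.94% of 17492 protein-coding windows. The ETS core CCGGAAG (or, on the other strand, CTTCCGG) stood in 16 (25.4%, all windows 12.9%) and the YY1 core AAGATGGC (GCCATCTT) in 10 (15.9%, all windows 3.57%). At least 1 of the 3 was found in 30 subunit windows (47.6%) and in 18.7% of all. Of the 7 risen members, 6 had an entry. Within the 250 bases before the start, 3 of them held a core. Those stretches are shown, chosen by the call and the core, with the cores in capitals. They read 5′ to 3′ along the gene's own strand, which is the minus strand for all 3. Cox6a1 spans chr5:115348959-115349208, Atp5l chr9:44920743-44920992 and Atp5h chr11:115419920-115420169 (GRCm38.p6).
Cox6a1: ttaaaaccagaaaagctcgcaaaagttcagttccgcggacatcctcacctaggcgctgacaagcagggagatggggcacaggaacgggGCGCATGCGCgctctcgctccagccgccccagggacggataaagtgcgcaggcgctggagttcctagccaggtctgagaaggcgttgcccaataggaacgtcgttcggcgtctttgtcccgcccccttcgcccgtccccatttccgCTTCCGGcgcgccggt
Atp5l: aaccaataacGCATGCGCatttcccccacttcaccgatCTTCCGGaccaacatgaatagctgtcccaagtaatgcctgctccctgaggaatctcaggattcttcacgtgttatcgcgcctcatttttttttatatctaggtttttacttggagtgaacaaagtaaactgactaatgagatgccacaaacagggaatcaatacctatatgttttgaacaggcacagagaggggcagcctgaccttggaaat
Atp5h: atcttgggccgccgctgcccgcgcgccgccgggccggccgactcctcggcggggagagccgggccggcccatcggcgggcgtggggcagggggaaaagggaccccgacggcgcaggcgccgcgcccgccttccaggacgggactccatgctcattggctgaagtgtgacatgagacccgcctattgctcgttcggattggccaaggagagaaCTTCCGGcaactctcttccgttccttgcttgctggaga
In the Cox6a1 stretch the NRF-1 core is read on both strands, the copies overlapping, and an ETS core stands near the gene start. Atp5l holds an NRF-1 and an ETS core close to each other at the far end of its stretch, and Atp5h a single ETS core. In Ndufa3 and Ndufs4 a YY1 core, and in Cox8a an ETS core, was found in the window but not wholly within the 250 bases. Such a core lies in, or reaches into, the 50 bases after the start, which are not printed. Windows of members with a fitted difference below 0 held the same cores. Among them were Ndufs3 (ETS), Ndufa9 (YY1), Uqcrc1 (NRF-1) and Sdhb (NRF-1 and ETS). The share with a core within the 250 bases was not counted for other genes, so the 3 of 6 has no background. Whether a core goes with a rise was not tested. A match is a description of letters and not of binding.

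Complex IV held 3 of the 7 risen members. Cox6c encodes a small accessory subunit that crosses the inner membrane. Its lowest, median and highest values were 6.39, 7.16 and 7.90 at 0 Gy, and 7.30, 7.96 and 8.28 at 8 Gy, with 7.54, 7.66, 7.78, 7.84 and 8.01 at 2 Gy. It rose by 0.88 ± 0.24 (SE; 7 and 6 mice) at 8 Gy, or 1.84 times, with an adjusted p of 0.0322. The ranges overlapped only through 0 Gy replicate 5, the highest control at 7.90, and 8 Gy replicate 1, the lowest 8 Gy array at 7.30. Without 0 Gy replicate 5 the difference was 1.08 ± 0.21 with an adjusted p of 0.00319.

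Cox8a, the broadly expressed form of the smallest nuclear subunit, measured 6.04, 7.36 and 8.09 (lowest, median, highest) at 0 Gy and 7.31, 7.87 and 8.49 at 8 Gy, with 8.04, 8.06, 7.53, 8.02 and 8.62 at 2 Gy. It rose by 0.89 ± 0.27 at 8 Gy, 1.86 times, with an adjusted p of 0.0451. The groups overlapped, and 0 Gy replicate 4 was the lowest of all 18 arrays. Cox6a1, the form of subunit VIa found outside muscle, measured 8.42, 9.24 and 10.02 at 0 Gy and 9.06, 9.61 and 10.09 at 8 Gy, with 9.20, 9.32, 8.93, 9.47 and 10.73 at 2 Gy. It rose by 0.82 ± 0.24, 1.76 times, with an adjusted p of 0.0419. Its highest control and its highest 2 Gy array were both PAXgene samples, and the kit stood in the fit.

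Cox7b, another accessory subunit, measured 4.65, 5.34 and 5.59 at 0 Gy, 5.74, 5.99, 5.93, 5.80 and 5.70 at 2 Gy, and 5.47, 5.83 and 6.56 at 8 Gy. The 5 values at 2 Gy all lay above the controls, and at 8 Gy all but 2 did. The differences were 0.64 ± 0.21 at 8 Gy (adjusted p 0.0574) and 0.57 ± 0.21 at 2 Gy (0.175), short of the threshold. Cox5a, a matrix-side subunit, stood at 0.69 ± 0.24 (0.0623) at 8 Gy.

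**Figure D2:**
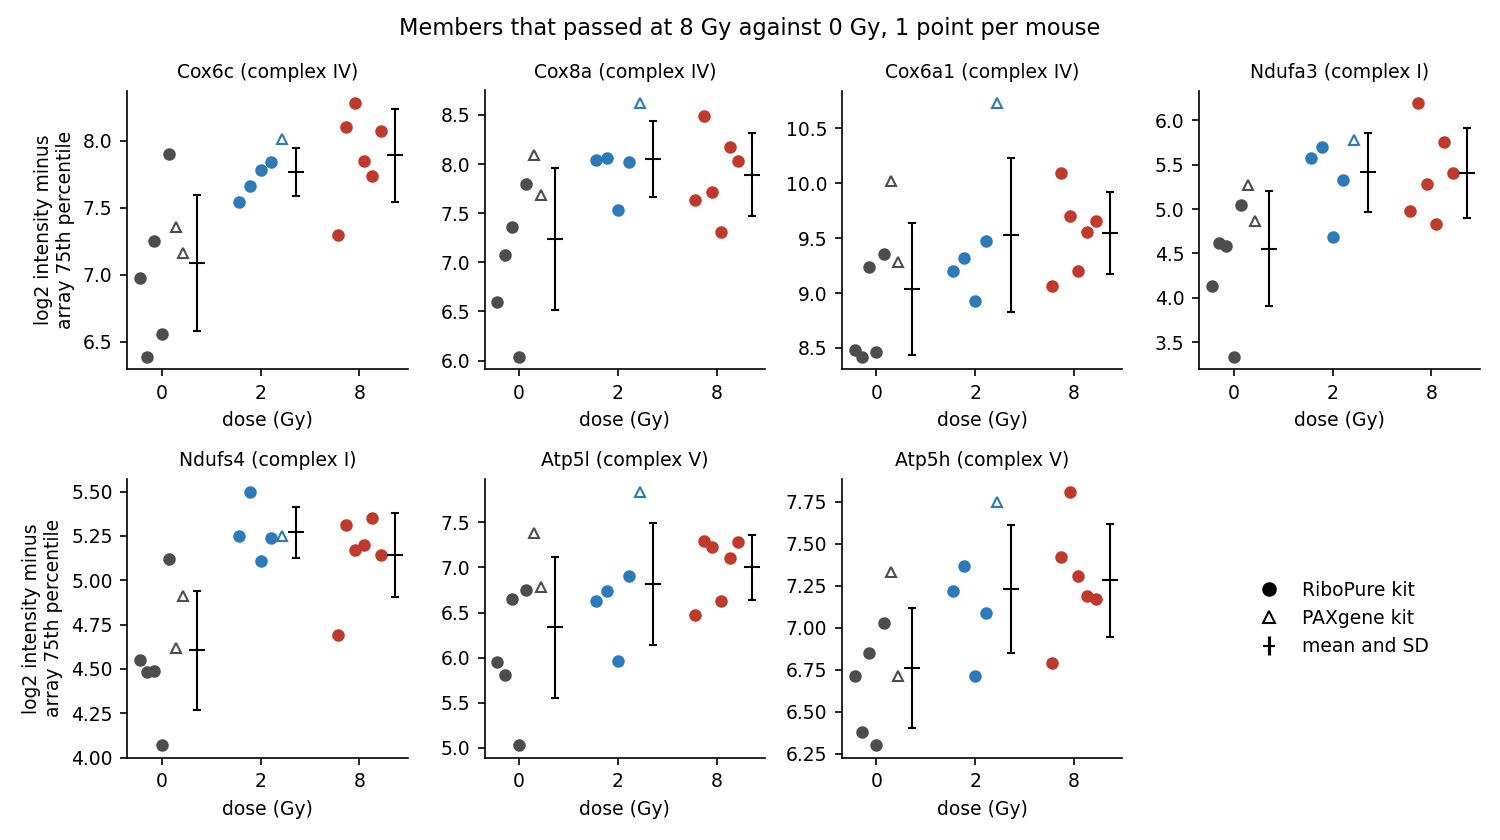
Values of the 7 members that rose at 8 Gy (log2 intensity minus the array's 75th percentile, y axis) by dose, 1 point per mouse, with circles for RiboPure, open triangles for PAXgene, and the mean with its SD. In every panel the 0 Gy and 8 Gy points overlap, and the 8 Gy mean is the higher, as for Cox6c at 7.09 and 7.89.

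Several complex IV subunits come in alternative forms, and each form was measured by its own probe. Cox6a2, the heart and skeletal muscle form of subunit VIa, is the 1 complex IV subunit with a difference below 0. It measured −2.19, −0.68 and 0.26 at 0 Gy, −1.99, −2.15, −2.64, −2.93 and −1.80 at 2 Gy, and −2.66, −2.24 and −1.28 at 8 Gy. Its differences were −0.79 ± 0.36 at 8 Gy (adjusted p 0.134) and −1.30 ± 0.36 at 2 Gy (0.106), and neither passed. The controls spread over more than 2 log2 units and the lowest lay among the irradiated arrays. Its probe was well above background on 7 of 7, 4 of 5 and 5 of 6 arrays.

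Cox6b1, the general form of subunit VIb, measured 0.76, 1.11 and 1.88 at 0 Gy, 1.76, 1.74, 2.23, 1.63 and 1.38 at 2 Gy, and 1.38, 1.55 and 2.21 at 8 Gy. All irradiated arrays lay above every control but 0 Gy replicate 5, and the difference at 8 Gy was 0.39 ± 0.21 (adjusted p 0.190). The testis form Cox6b2 measured 2.14, 3.10 and 3.65, then 3.23, 3.18, 2.11, 3.48 and 4.22, then 2.84, 3.50 and 4.19, with a difference of 0.72 ± 0.35 (0.159). The groups overlapped widely for Cox6b2.

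Cox4i1, the general form of subunit IV, measured 5.06, 5.97 and 6.82 at 0 Gy, 5.41, 5.28, 6.32, 5.94 and 7.00 at 2 Gy, and 5.77, 5.87 and 6.35 at 8 Gy, the 8 Gy values lying inside the control range (0.26 ± 0.23, adjusted p 0.449). Cox7a2, the general form of subunit VIIa, measured 5.33, 5.86 and 6.22, then 6.02, 6.00, 6.43, 6.32 and 6.25, then 5.87, 6.00 and 6.87 (0.50 ± 0.23, 0.139). The muscle form Cox7a1 measured −1.58, −0.73 and 0.64, then −0.93, −0.91, −0.02, −0.41 and 0.83, then −1.28, −0.90 and −0.21 (0.03 ± 0.32, 0.961). The 8 Gy values of Cox7a1 stayed within the control range, while 2 of those of Cox7a2 were above it. Cox7a2l, which is no structural subunit of complex IV alone, measured 3.58, 4.65 and 5.00, then 4.76, 5.31, 3.78, 4.39 and 4.66, then 4.23, 4.43 and 5.43 (0.24 ± 0.29, 0.591).

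The alternative forms Cox4i2, Cox8b and Cox8c were not well above background on enough arrays to be tested: 1, 2 and 2 of 18. Cox7b2 and Ndufa4l2 were not among the members. Emc8, which only shares the old name, measured −1.10, −0.66 and −0.21 at 0 Gy, −0.77, −1.08, −0.01, −0.93 and −0.95 at 2 Gy, and −1.66, −1.38 and −0.34 at 8 Gy. Its difference at 8 Gy was −0.60 ± 0.25 (adjusted p 0.112), with 5 of 6 arrays below every control.

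Complex I held the member with the largest rise. Ndufa3, an accessory subunit of the membrane arm, measured 3.34, 4.62 and 5.27 at 0 Gy, 5.57, 5.70, 4.68, 5.33 and 5.78 at 2 Gy, and 4.83, 5.34 and 6.19 at 8 Gy. It rose by 1.03 ± 0.30 at 8 Gy, 2.04 times, with an adjusted p of 0.0394. At 8 Gy 4 of 6 arrays lay above the highest control, a PAXgene sample. Its second, dim probe gave 0.39 ± 0.34.

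Ndufs4, an accessory subunit near the entry point of electrons whose loss in mice causes a Leigh-like disease, measured 4.07, 4.55 and 5.12 at 0 Gy, 5.25, 5.50, 5.11, 5.24 and 5.25 at 2 Gy, and 4.69, 5.19 and 5.35 at 8 Gy. It rose by 0.57 ± 0.18 at 8 Gy, 1.49 times, with an adjusted p of 0.0497. At 8 Gy 5 of 6 arrays lay above every control, the exception being replicate 1. Ndufa4 is named for complex I and has since been assigned to complex IV; the counts here keep it in complex I by its name. It measured 5.39, 5.80 and 6.35 at 0 Gy, 6.44, 6.60, 6.56, 6.35 and 6.95 at 2 Gy, and 5.78, 6.34 and 6.57 at 8 Gy. Its differences were 0.52 ± 0.18 at 8 Gy (adjusted p 0.0631) and 0.72 ± 0.18 at 2 Gy (0.0859). Its 2 Gy arrays lay above the controls, the nearest pair being equal at 2 decimals. Ndufb9 (0.64 ± 0.21, 0.0505), Ndufa13 (0.54 ± 0.18, 0.0543) and Ndufa1 (0.71 ± 0.27, 0.0829) also stood above 0 at 8 Gy without passing.

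Most of complex I lay on the other side. Ndufb5, an accessory subunit of the membrane arm, measured 0.29, 0.62 and 0.99 at 0 Gy, 0.00, 0.07, 1.58, −0.22 and 0.64 at 2 Gy, and −0.65, −0.32 and 0.53 at 8 Gy. Its difference at 8 Gy was −0.82 ± 0.28, 0.565 times the control level, with an adjusted p of 0.0580. Ndufa10, another accessory subunit, measured 1.26, 1.45 and 1.68, then 1.24, 1.14, 2.43, 1.00 and 1.14, then 0.54, 0.74 and 1.45 (−0.62 ± 0.24, 0.0835). For both, 5 of 6 8 Gy arrays lay below every control and the sixth was replicate 1. Ndufs3, one of the core subunits, showed the same order, at 2.75, 3.26 and 3.47, then 2.37, 2.39, 4.50, 2.16 and 2.81, then 2.00, 2.16 and 2.85 (−0.80 ± 0.33, 0.101).

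In complex II no member passed, and no difference was larger than 1.5 times its standard error. Sdha, the flavoprotein that oxidizes succinate, measured 1.15, 1.37 and 1.86 at 0 Gy, 1.10, 0.92, 2.54, 1.51 and 1.37 at 2 Gy, and 1.18, 1.33 and 1.58 at 8 Gy (−0.10 ± 0.24, adjusted p 0.808). Sdhb, the iron-sulfur subunit, measured 2.90, 3.23 and 3.68, then 3.01, 2.89, 4.29, 2.83 and 3.27, then 2.59, 2.99 and 3.12 (−0.31 ± 0.24, 0.388). For both the 0 and 8 Gy ranges overlapped and 2 Gy replicate 3 was the highest of all arrays.

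The membrane anchors did not pass either. Sdhc measured 1.75, 1.99 and 2.89, then 2.11, 1.99, 2.93, 1.53 and 2.95, then 1.09, 1.70 and 2.07 (−0.33 ± 0.26, 0.385). Sdhd measured 2.95, 3.56 and 3.91, then 3.24, 3.07, 4.85, 3.64 and 3.41, then 2.96, 3.44 and 3.74 (−0.08 ± 0.27, 0.865). At 8 Gy all 6 Sdhd arrays lay within the control range.

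Complex III was split without a call. Uqcrh, the hinge protein of cytochrome c1, measured 7.41, 8.73 and 9.02 at 0 Gy, 8.95, 8.99, 8.49, 9.22 and 9.37 at 2 Gy, and 8.53, 9.02 and 9.75 at 8 Gy (0.76 ± 0.27, adjusted p 0.0695). Uqcr11, the smallest subunit, measured 4.54, 4.73 and 5.96, then 5.30, 5.27, 6.18, 5.36 and 6.65, then 5.10, 5.46 and 5.64 (0.63 ± 0.21, 0.0566 at 8 Gy, and 0.80 ± 0.21, 0.0962 at 2 Gy). Every irradiated array lay above the 3 lowest controls in Uqcrh and above the 4 lowest in Uqcr11.

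Uqcrb, which binds near the ubiquinone site, measured 1.28, 1.68 and 2.57 at 0 Gy, 0.73, 0.63, 2.54, 1.40 and 0.93 at 2 Gy, and 0.58, 0.86 and 2.05 at 8 Gy (−0.85 ± 0.33, 0.555 times the control level, adjusted p 0.0884). At 8 Gy 5 of 6 arrays lay below every control. Uqcrfs1, the Rieske iron-sulfur protein, measured 3.27, 3.68 and 4.20, then 3.35, 3.33, 4.98, 2.88 and 3.12, then 2.86, 3.29 and 3.71 (−0.58 ± 0.30, 0.188), with overlapping groups.

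In complex V, Atp5l and Atp5h rose. Atp5l, subunit g of the membrane part, measured 5.03, 6.65 and 7.38 at 0 Gy, 6.63, 6.74, 5.96, 6.90 and 7.84 at 2 Gy, and 6.47, 7.17 and 7.29 at 8 Gy. It rose by 0.99 ± 0.28 at 8 Gy, 1.98 times, with an adjusted p of 0.0394. Atp5h, subunit d of the outer stalk, measured 6.30, 6.71 and 7.33 at 0 Gy, 7.22, 7.37, 6.71, 7.09 and 7.75 at 2 Gy, and 6.79, 7.25 and 7.81 at 8 Gy. It rose by 0.66 ± 0.20, 1.58 times, with an adjusted p of 0.0465, and its 2 probes gave 0.66 and 0.69. For both the highest control was PAXgene replicate 6. Atp5b, the catalytic beta subunit, stood at 0.63 ± 0.20 (0.0525) and Atp5e, the epsilon subunit, at 0.58 ± 0.19 (0.0542), without passing.

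Atp5g1, Atp5g2 and Atp5g3 encode the same mature c subunit of the rotor ring, and all 3 lay below 0 without passing. Atp5g1 measured 1.73, 2.33 and 3.03 at 0 Gy, 1.74, 1.43, 3.94, 1.38 and 2.55 at 2 Gy, and 1.17, 1.51 and 2.44 at 8 Gy (−0.59 ± 0.38, adjusted p 0.283). Atp5g2 measured 3.93, 4.56 and 5.05, then 4.08, 4.05, 4.83, 4.06 and 4.73, then 3.52, 3.87 and 4.56 (−0.36 ± 0.21, 0.240). Atp5g3 measured 5.71, 6.03 and 6.49, then 5.58, 5.56, 7.68, 5.66 and 5.76, then 5.58, 5.63 and 6.11 (−0.37 ± 0.31, 0.423).

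In all 3 genes 2 Gy replicate 3 was the highest of the 2 Gy arrays. Atp5o, which joins the stalk to the catalytic head, measured 4.65, 4.83 and 5.03 at 0 Gy, 4.44, 4.30, 6.06, 4.43 and 4.56 at 2 Gy, and 4.07, 4.31 and 5.03 at 8 Gy (−0.47 ± 0.26, 0.224). All irradiated arrays of Atp5o lay below every control except 2 Gy replicate 3 and 8 Gy replicate 1.

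**Figure D3:**
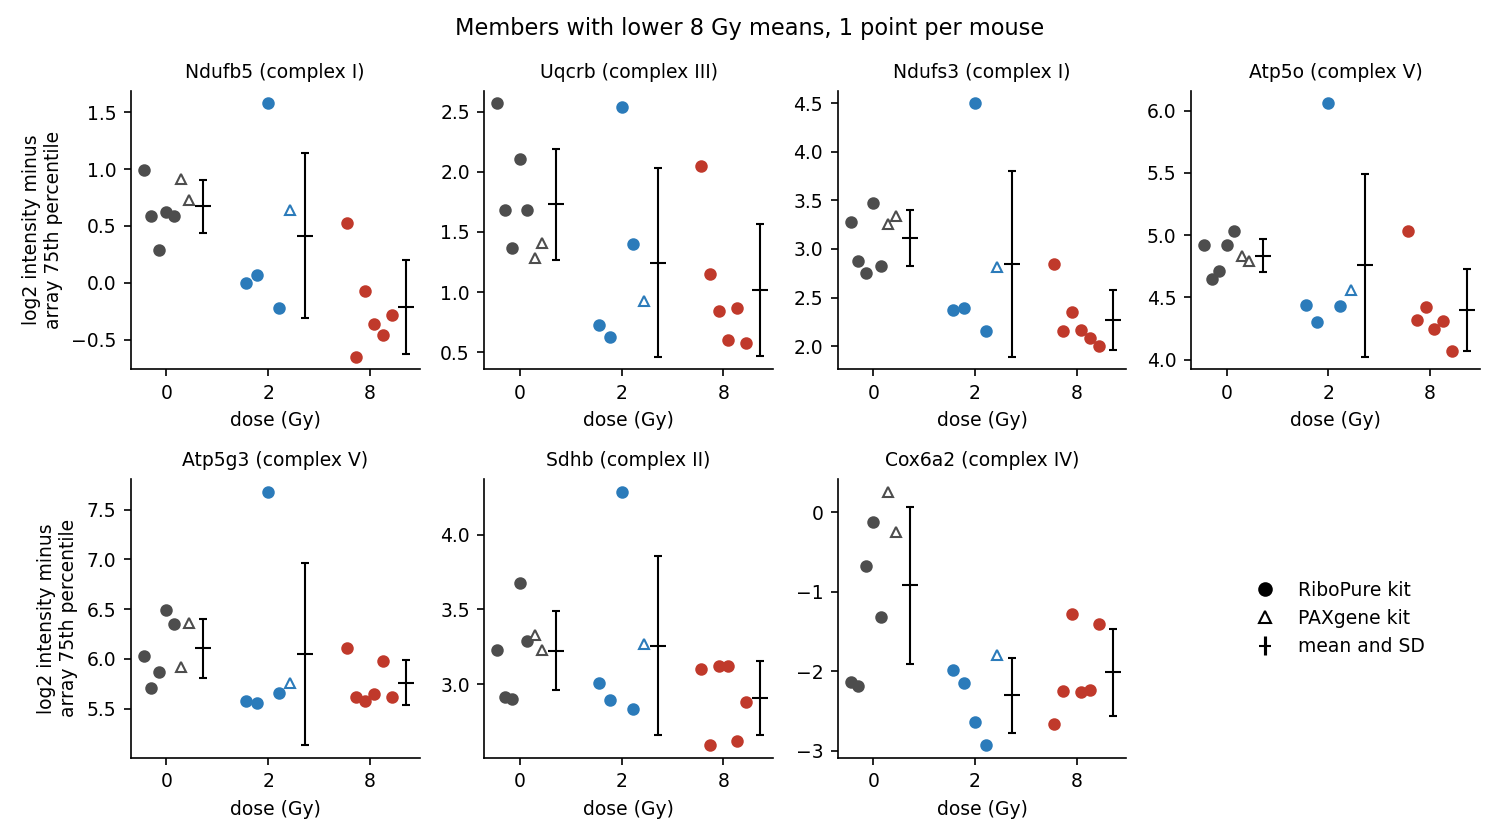
Values of 7 members with lower means at 8 Gy than at 0 Gy (log2 intensity minus the array's 75th percentile, y axis) by dose, 1 point per mouse, with circles for RiboPure, open triangles for PAXgene, and the mean with its SD. None passed the test. In 6 of the panels 1 array at 2 Gy, replicate 3, lies above the controls or close to their highest, as for Atp5g3 at 7.68. In Ndufb5, Uqcrb, Ndufs3, Atp5o and Atp5g3, 8 Gy replicate 1 is the highest of its group.

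Across all members, no 8 Gy range lay wholly above or wholly below the 0 Gy range, beside 0.822% and 0.844% of all genes. Short of that, 7 members had 5 of 6 8 Gy arrays below every control: Ndufb5, Ndufa10, Ndufs3, Uqcrb, Emc8, Atp5o and Atp5d, the delta subunit of ATP synthase. That is 8.86% of the members, and 5.32% of all genes met the same condition. The opposite, 5 of 6 above every control, was met by 1 member, Ndufs4, and by 4.79% of all genes. In all 7 the exception was 8 Gy replicate 1, the array with B cell and neutrophil markers nearer to the controls. Among the 45 members with a difference below 0, this array was the highest of the 8 Gy group for 26, and among the 34 above 0 it was the lowest for 13. The same was not counted over all genes, so these counts have no background. The relation of these values to the cell markers was not tested. At 2 Gy the range of Ndufa4 and of Cox7b lay wholly above the controls and none wholly below, beside 0.166% and 0.980% of all genes.

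Leaving out an array moved the number of calls in either direction. No member passed at 8 Gy without 0 Gy replicate 1, 2 or 4, without 2 Gy replicate 5, or without any 1 of 8 Gy replicates 2 to 6, and 268 to 786 of all genes did. Without an array that stood apart there were more calls. Without 8 Gy replicate 1, 20 members passed at 8 Gy, 16 higher and 4 lower (25.3%), beside 21.7% of all genes. Now Ndufb5 fell by 0.97 ± 0.27 (adjusted p 0.0221) and Uqcrb by 1.06 ± 0.31 (0.0267), with Ndufa10 at −0.73 (0.0363) and Emc8 at −0.78 (0.0259). Without 0 Gy replicate 5, 17 members passed, all higher (21.5%), beside 22.8%. Without 2 Gy replicate 3, 16 passed, 12 higher and 4 lower (20.3%), beside 17.6%, the lower ones being Ndufs3 at −0.75 ± 0.18 (0.0191), Ndufb5 at −0.78 ± 0.20 (0.0218), Ndufa10 at −0.59 ± 0.17 (0.0310) and Ndufaf1 at −0.61 (0.0367). All 7 members that rose on the full set also passed in each of these fits. The members' share was near that of all genes each time.

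At 2 Gy no member passed against 0 Gy, and 0.0528% of all genes did (7 genes). At an unadjusted p under 0.05, 20 members were higher and 1 lower, beside 11.3% and 9.11% of all genes. The difference was above 0 for 52 of 79 members (65.8%) and for 54.5% of all genes, with medians of 0.13 and 0.06. By complex the medians were 0.09, 0.10, 0.16, 0.43 and 0.18 from I to V. The 2 doses share their controls, so their differences are given side by side only: the 7 members that rose at 8 Gy stood at 2 Gy at 0.71 ± 0.24 for Cox6c, 0.89 ± 0.27 for Cox8a, 0.59 for Cox6a1, 0.91 ± 0.30 for Ndufa3, 0.67 ± 0.18 for Ndufs4, 0.57 ± 0.28 for Atp5l and 0.51 for Atp5h, with adjusted p from 0.104 to 0.264.

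Between the doses, no member passed at 8 Gy against 2 Gy, nor did any of all genes tested (0%). At an unadjusted p under 0.05, none was higher and 2 lower, beside 1.85% and 1.28% of all genes. The difference was above 0 for 20 of 79 members (25.3%) and for 56.0% of all genes, with medians of −0.20 and 0.05. This turned on 1 array: without 2 Gy replicate 3 the member median was 0.03 and 45 of 79 lay above 0. The 2 Gy median against 0 Gy likewise moved from 0.13 to −0.06, with 33 of 79 above 0, while the complex IV median moved from 0.43 to 0.45 and the complex I median from 0.09 to −0.15.

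That array was the highest of the 2 Gy group for 52 of 79 members and of all 18 arrays for 47 (59.5%), beside 13.3% of all genes. It was the highest of its group for 28 of 37 members of complex I, 3 of 4 of complex II, 5 of 7 of complex III, 11 of 16 of complex V and 5 of 15 of complex IV, the 4 genes that are no subunits counted with their names. Of the risen members, Cox8a, Cox6a1, Ndufa3, Ndufs4, Atp5l and Atp5h had their lowest 2 Gy value on it. The median deviation of the subunits from the 0 Gy mean was 0.85 on it and −0.12 to 0.21 on the other 2 Gy arrays, while that of all genes was −0.21. On the same array the citric acid cycle genes stood at 0.70, assembly factors at 0.58, the mitochondrial ribosome at 0.48 and mitochondrial import at 0.32, and the T cell markers at −1.51. The part of any of these in the members' values was not tested.

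**Figure D4:**
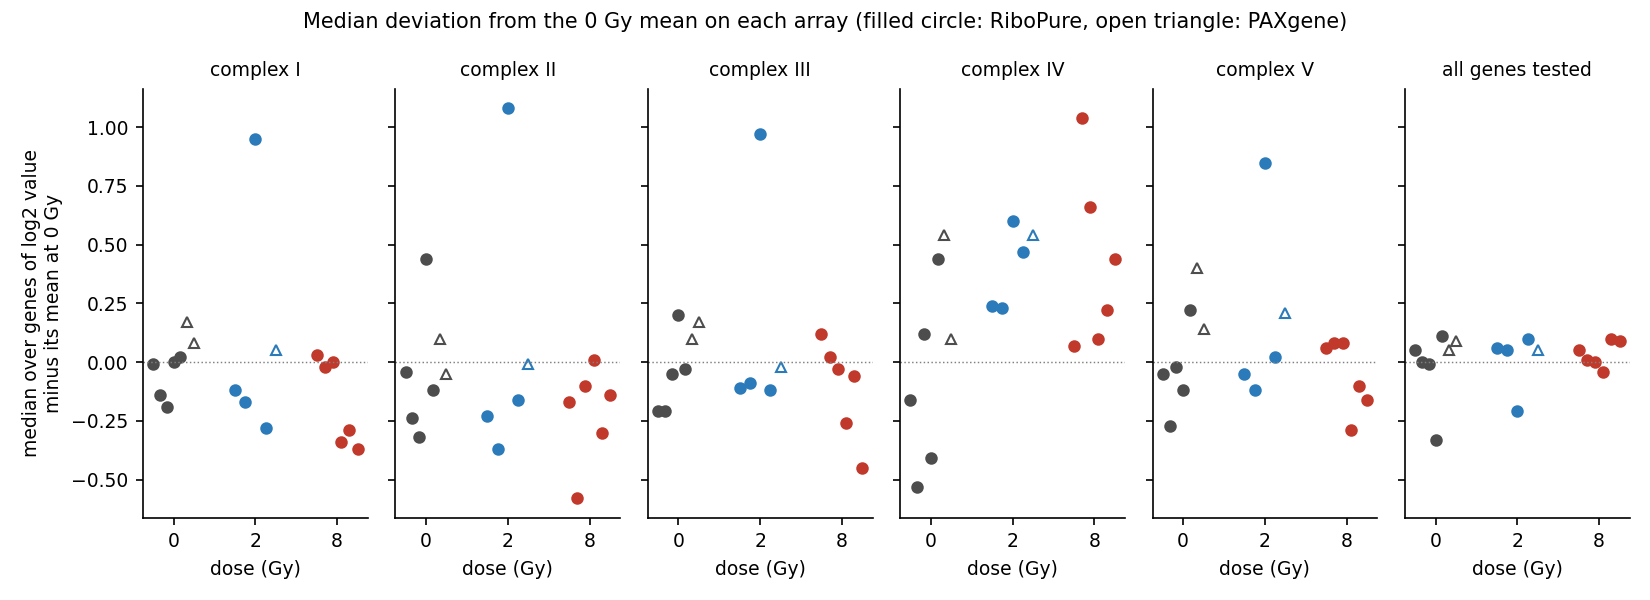
Median over the subunits of a complex, or over all genes tested, of the deviation from the 0 Gy mean (log2, y axis) on each array by dose, with filled circles for RiboPure and open triangles for PAXgene. On 2 Gy replicate 3 the median was 0.95 in complex I, 1.08 in complex II and 0.97 in complex III, while in complex IV it was 0.60, beside 0.54 on the next 2 Gy array.

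Without this array, 1.60% of all genes and no member passed at 2 Gy. Without 0 Gy replicate 5, 11 members passed at 2 Gy, 10 higher and 1 lower (13.9%), beside 6.99% of all genes. Without 8 Gy replicate 1, Ndufa4 alone passed at 2 Gy, beside 1.19%. A fit chosen after seeing the data left out 0 Gy replicates 4 and 5 and 2 Gy replicate 3, where replicate 4 was the lowest of 18 arrays for 22 of 79 members (27.8%) and for 23.4% of genes. In it 20 members passed at 8 Gy, 16 higher and 4 lower, beside 26.2% of all genes, and 10 at 2 Gy, 9 higher and 1 lower (12.7%), beside 18.1%.

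The members' differences went along with how bright their probes were. In the 17 members whose mean value was 6 or more, 16 differences were above 0, with a median of 0.64, and 5 of the 7 calls lay here. Among all 461 genes in this band the median was 0.84 and 31.7% rose. In the 26 members between 2 and 4 the median was −0.32 and 3 were above 0, while of 2325 genes in the band 60.0% were above 0, with a median of 0.16. Between 4 and 6 the medians were 0.17 over 23 members and 0.57 over 898 genes, and between 0 and 2 they were −0.62 over 9 members and −0.02 over 3677 genes. The members' median lay below that of all genes in each of these bands. Over the 79 members, which share their arrays and their scaling, Spearman's rho of brightness and difference was 0.71, beside 0.19 over all genes. Under quantile normalization it was 0.44, beside 0.07.

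By complex the brightness differed too. Of the complex IV probes not all were bright: of its 13 subunits 5 had a mean of 6 or more, as had 5 of complex I, 2 of complex III, 5 of complex V and none of complex II. Among the subunits under 6, the median difference was 0.23 in complex IV, and −0.23, −0.20, −0.41 and −0.36 in complexes I, II, III and V. Among those under 4, 4 of 5 lay above 0 in complex IV, and 1 of 22, 0 of 4, 0 of 2 and 1 of 3 in the others. None of these 5 passed: Cox7a1 and Cox7c, both at 0.03 ± 0.32, were close to 0, Cox6b1 and Cox6b2 were at 0.39 and 0.72, and Cox6a2 was at −0.79.

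**Figure D5:**
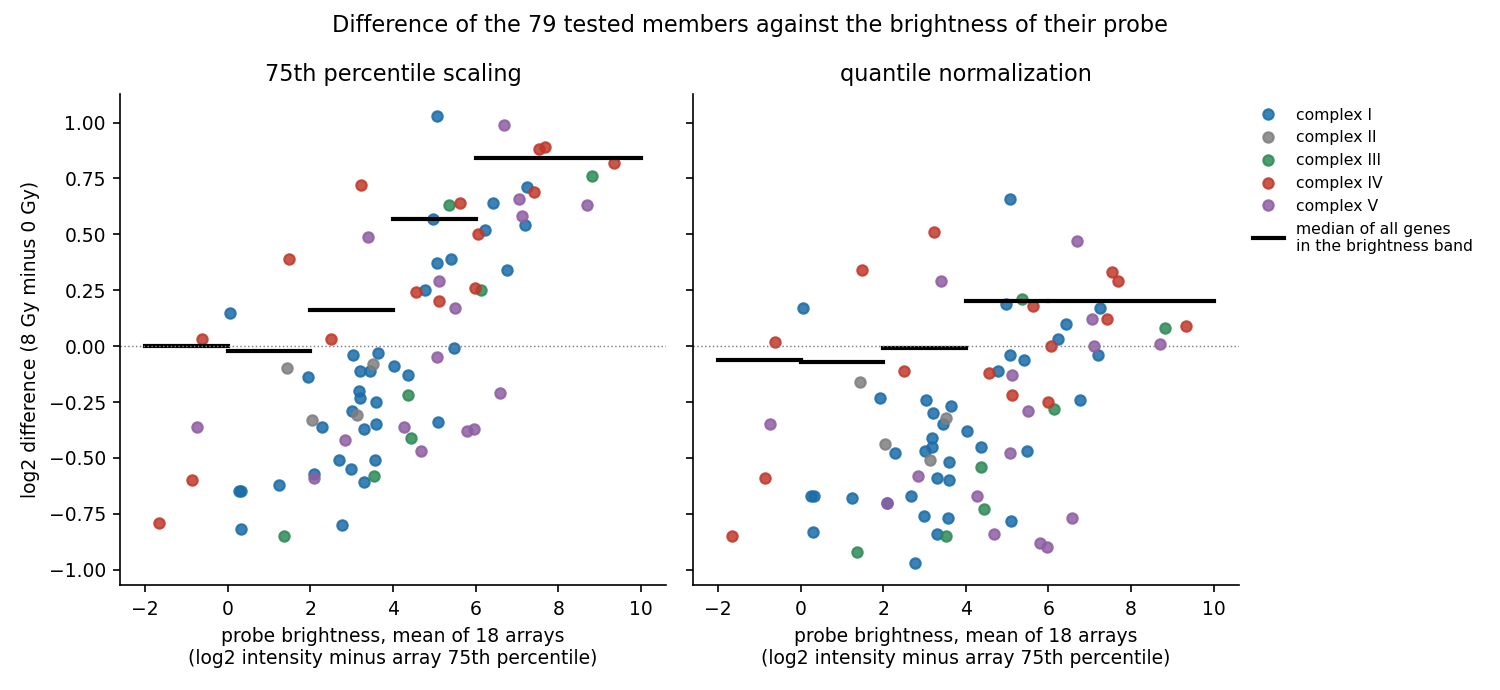
Log2 difference at 8 Gy against 0 Gy (y axis) of the 79 tested members by the mean brightness of their probe (x axis, log2 intensity minus the array's 75th percentile), coloured by complex, with 75th percentile scaling at left and quantile normalization at right. Black lines are the median of all genes in each band of brightness, 0.84 at left for 6 and over, and below 6 most members of complexes I, II, III and V lie under them.

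The calls, and the sign of some members, changed with the scaling. Under quantile normalization, which forces the same spread of values on every array, no member passed at 8 Gy (limma): at an unadjusted p under 0.05, 22 were lower and 2 higher. Of all genes 8.22% passed under this scaling, and 16.3% were lower and 14.5% higher at an unadjusted p under 0.05. The medians were −0.32 over the members, −0.02 over all genes, 0.09 in complex IV (8 of 13 above 0) and −0.43, −0.38, −0.54 and −0.48 in complexes I, II, III and V. Of all calls 63.9% were higher under the 75th percentile and 46.0% under quantile normalization. The median of all genes also moved by over 0.1, from 0.08 to −0.11, with the percentile taken over probes well above background on all arrays, where the members' median was −0.28 and 3 members rose and 2 fell, beside 6.39% and 10.6% of all genes.

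Between the 75th percentile and quantile normalization, 21 members were higher in both, 45 lower in both, and 13 changed sign. The 7 risen members stayed above 0 under quantile normalization, at 0.66 for Ndufa3 (adjusted p 0.107), 0.47 for Atp5l (0.127), 0.33 for Cox6c (0.215), 0.29 for Cox8a (0.313), 0.19 for Ndufs4 (0.389), 0.12 for Atp5h (0.611) and 0.09 for Cox6a1 (0.711). In every one of 34 alternatives their differences stayed positive, but Cox6c passed in 15, Atp5l in 11, Ndufa3 in 10, Cox6a1 in 8, and Atp5h, Cox8a and Ndufs4 in 7 each.

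Slides and scan days hold over 1 group only in part. On slide 1, which is also scan day 1, 8 Gy replicates 3 and 4 stood above 0 Gy replicate 1 by 1.08 for Cox6c, 0.91 for Cox8a, 0.97 for Cox6a1, 0.91 for Ndufa3, 0.63 for Ndufs4, 0.98 for Atp5l and 0.85 for Atp5h. On scan day 4, 8 Gy replicate 6 stood above 0 Gy replicate 5 by 0.17, 0.23, 0.29, 0.35, 0.02, 0.53 and 0.15 for the same genes. With a fixed block for slide, or for scan day, no member and no gene passed at 8 Gy. Cox6c then stood at 0.84 (adjusted p 0.579) and 0.76 (0.257), Ndufa3 at 0.84 (0.599) and 0.82 (0.269), and the complex IV median at 0.57 and 0.35. With the slide block the complex I median turned from −0.13 to 0.03 and the member median from −0.09 to 0.06, with 47 of 79 members above 0. With the scan day block they were −0.26 and −0.07.

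The RNA kit was compared in the same fit. All 3 PAXgene arrays came from slides and scan days that held no RiboPure array, so kit and slide cannot be told apart. PAXgene samples were higher than RiboPure samples for 3 members (3.80%) at an adjusted p under 0.05: Cox6a1 by 1.09 ± 0.27 (0.0391), Uqcr11 by 0.93 ± 0.24 (0.0431) and Cox4i1 by 1.00 ± 0.26 (0.0444). Of all genes 3.22% passed, 1.92% higher. Of these 3, Cox6a1 is also among the members that rose at 8 Gy. By complex the median kit difference was 0.55 in complex IV, with 10 of 13 subunits above 0. It was 0.18, 0.00, 0.12 and 0.28 in complexes I, II, III and V, and 0.07 over all genes. On the RiboPure arrays alone no member and 2.13% of all genes passed at 8 Gy, with Cox6c at 0.88 (0.0746), Cox6a1 at 0.75 (0.0836) and Ndufa3 at 1.06 (0.0772).

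In the lists of mitochondrial genes around the chain few passed at 8 Gy. Of 44 assembly factors 1 rose and 2 fell at 8 Gy, with a median of −0.37: Coa5, which serves complex IV, rose by 0.95 ± 0.27 (adjusted p 0.0371), while Acad9, which serves complex I, fell by 0.73 ± 0.21 (0.0402) and Sdhaf3, which serves complex II, by 1.02 ± 0.31 (0.0456). Of 78 proteins of the mitochondrial ribosome 1 rose and 1 fell (median −0.39): Mrpl33 stood at 0.97 (0.0393) and Mrpl19 at −0.93 (0.0432). At an unadjusted p under 0.05 (limma), 28 of these were lower and 3 higher, beside 12.8% and 20.3% of all genes. Next by p in the list, Mrps2 stood at 0.97 (0.0502).

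None of 18 citric acid cycle genes passed (median −0.44), with Mdh2 at 0.44 (0.0671), Suclg1 at −0.90 (0.0740) and Fh1 at −1.24 (0.0842). Of 23 import genes Timm9, a carrier chaperone, fell by 1.23 ± 0.38 (0.0464), with a median of −0.43, and Tomm40 stood at −0.74 (0.0563) and Timm17b at 0.76 (0.0582). None of 14 regulators of mitochondrial gene expression passed (median −0.39), with Tefm at −1.04 (0.0556), Tfb1m at −0.68 (0.0687) and Ppargc1b at −0.84 (0.0722). Of 20 electron carriers and adenine nucleotide carriers 2 rose (median −0.24): Ucp2, an uncoupling protein family member abundant in leukocytes, by 1.17 ± 0.25 (0.0156) and Vdac1, the outer membrane channel, by 0.54 ± 0.14 (0.0317), with Atpif1, the inhibitor of ATP synthase, at 1.00 ± 0.34 (0.0614).

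In glycolysis 7 of 20 genes rose (35.0%, all genes 7.64%) and none fell at 8 Gy, with a median of 0.60, and its difference from the other lists was not tested: Hk3, a hexokinase known from leukocytes, rose by 1.73 ± 0.37 (0.0147), Ldhb, a lactate dehydrogenase subunit, by 1.66 ± 0.37 (0.0172) and Slc16a3, a lactate exporter, by 1.49 ± 0.40 (0.0314). The others were Hk1, Tpi1 and the glucose transporters Slc2a1 and Slc2a3. On 0 Gy replicate 5, the control with high neutrophil markers, the glycolysis genes had a median deviation of 0.65. No gene of any of these mitochondrial lists or of glycolysis passed at 2 Gy.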

How the data were processed

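The deposited scanner files hold a processed signal per spot, an intensity on a linear scale. Per the file headers, Agilent Feature Extraction 9.5.3.1 made it, with background subtraction and detrending. The deposited table of the series is also an intensity, with a median of 20.7 in each of its 18 columns. Within an array, the log2 values of table and scanner file had a Pearson correlation between 0.988 and 1.000. The submitters' processing notes also name limma, and the steps between are not given in the sources used here. That table served as an alternative. Here the 43379 spots outside controls were averaged per probe, 45 outlier values were left out, and log2 minus the array's 75th percentile was taken. Probes were named through RefSeq accession (22951), symbol (6659), older symbol (3109) or the file's own name (838), and 7617 had no gene name. The brightest probe stood for a gene. limma 3.58.1 in R 4.3.3 fitted dose and RNA kit over all 18 arrays (lmFit, eBayes), with Benjamini-Hochberg adjustment over 13265 genes and a threshold of 0.05. The fit was tested on simulated data with independent noise in each gene. Those data held no effect of slide, array or cell type, so the test does not bear on such effects. Promoter windows are RefSeq's (GRCm38.p6).

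Members and lists were chosen with earlier results of these data known. Values by array (every array at 2 Gy; the lowest, median and highest at 0 and 8 Gy) are given for the members that passed, the 2 of smallest p in each direction in each complex, the alternative forms and the Sdh genes, and from each other list differences for the 3 genes of smallest p, with the others that passed named. Ndufs3 and the other genes given only by their difference were named after their values were seen. The alternatives were another scaling, background correction, filter, probe rule, blocks for slide, scan day and replicate number, the kit, and each array left out.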

Additional observations from a re-analysis of the deposited data

Results flagged for a closer look

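Of 111 sets of values of 1 dose group (named members and complex medians), 11 held an array far from the rest by Dixon's criterion. Chance gives this in about 1 in 20 independent sets. These sets share their arrays, and the medians are built from members, so their count cannot be read against that rate. On 2 Gy replicate 3, Atp5g3 was 7.68 (nearest other array 5.76), Atp5o 6.06 (4.56), Uqcrfs1 4.98 (3.35), Ndufa10 2.43 (1.24) and Emc8 −0.01 (−0.77). On the same array the median deviation from the 0 Gy mean was 0.95 in complex I (nearest other 0.05), 1.08 in complex II (−0.01) and 0.97 in complex III (−0.02). On 8 Gy replicate 1, Atp5o was 5.03 (nearest other 4.42) and Ndufs4 4.69 (5.14). On 0 Gy replicate 5, Cox6b1 was 1.88 (nearest other 1.22). These 3 arrays are those whose effect on the calls was given above.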

How the results depend on the processing

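At 8 Gy against 0 Gy, 7 members and 1586 of all genes passed. No member passed under quantile normalization, the deposited table, no filter, slide or scan day as a fixed block, the RiboPure arrays alone or array brightness as a covariate; 1 did with normexp background (1267 of all genes) and with the slide as a random block, 2 (both lower) with only the 2 groups compared, 4 without a kit term (1921 of all genes) and 16 of 78 with the filter on all 18 arrays (1793 of 9386 genes). Of all genes 564 passed with no filter, 596 with the slide as a random block, 283 on RiboPure arrays alone, 783 with only the 2 groups compared, and 0 with the fixed blocks or the covariate. Leaving out 1 array at a time gave 0 to 20 members and 268 to 3026 genes, and without 0 Gy replicates 4 and 5 and 2 Gy replicate 3 together, 20 and 3482. At 2 Gy, where 0 members and 7 genes passed, these were 0 to 11 and 0 to 927, and 10 and 2400. Genes passing at 2 Gy were 40 under quantile normalization, 124 with normexp, 34 with the filter on all 18 arrays, 18 with every probe on its own, 2 with only the 2 groups compared, and 0 with no filter, the fixed blocks, RiboPure alone or the covariate. The cause of these differences was not tested. No called result was reversed. Members of dim probes such as Cox6a2 are limited by their signal over background.

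Replicate numbers are shared by the dose groups. Over 16 same-numbered pairs the correlation of deviations ran from −0.35 to 0.48, above 0.1 in 8. Differently numbered pairs were not set beside them, so these values cannot decide whether the number marks a pairing. With the replicate block, 0 members and 238 genes passed at 8 Gy and 67 genes at 2 Gy.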

Other observations

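Probes of 1 gene did not always give the same difference at 8 Gy. For Atp5a1, the alpha subunit of the catalytic head, the probes gave 0.12 and −0.38. For Atp5pb, a stalk subunit deposited as Atp5f1, the dim probe gave 1.24 ± 0.34 (limma, adjusted p 0.0368 over all probes) and the others 0.17 and 0.16. For Dmac2l they gave −0.36 and 0.32.

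Symbols have changed since the array was designed. With the members extended to 99 genes under current names, 95 were tested and 9 passed at 8 Gy, 8 higher and 1 lower. Of all genes 12.0% passed, 7.64% higher and 4.31% lower. The added calls were Atp5mpl, a small ATP synthase protein, which rose by 0.70 ± 0.22 (limma, adjusted p 0.0484), and Sdhaf3. Of other subunits outside the name rule, Atp5md stood at 0.51 (0.0862), Uqcr10 at 0.36 (0.211), Cyc1 at −0.23 (0.655) and Ndufv3 at −0.34 (0.328), and the electron carrier Cycs at −0.38 (0.337).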
